A study of Mus musculus with 19 samples.

Results

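The genes described here are 10 that encode inflammatory cytokines and chemokines, or a regulator of their transcription: Tnf, Il1a, Il1b, Il6, Osm, Ccl3, Ccl4, Ccl5, Cxcl2 and Nfkbiz. They were taken by symbol from deposited gene count tables that list 16842 genes in all, and all 10 were listed in each of the 3 cell sets. The tables came from RNA-seq of mouse bone marrow in 19 libraries, from animals that were wild type (WT) or carried mutant Asxl1 (MT), a gene often mutated in clonal blood disorders. Myeloid cells sorted for CD11b came from animals of 4 months (young: 3 MT and 4 WT libraries) and of 18 months (old: 3 MT and 3 WT). LK cells, which lack lineage markers and carry c-Kit, came from animals of 18 months (3 MT and 3 WT). The mutant allele, its promoter, the strain, the sex and any treatment are not given in the sources used here. It is also not given there if libraries of 1 group came from different animals, so each test measures the spread between these libraries. Fewer cells of a type and less RNA per cell cannot be told apart in such bulk samples.

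Tnf encodes the cytokine TNF, and Il1a and Il1b encode the alpha and beta forms of interleukin 1, early alarm signals of inflammation. Il6 and Osm encode interleukin 6 and oncostatin M, which signal through receptors that share the chain encoded by Il6st. Ccl3, Ccl4, Ccl5 and Cxcl2 encode chemokines: the first 3 attract mainly monocytes, T cells and other leukocytes, and Cxcl2 attracts neutrophils through the receptor Cxcr2. Nfkbiz encodes IkappaB-zeta, a nuclear protein that helps NF-kB, the main transcription factor of inflammation, to switch on a subset of its targets, Il6 among them. Sensors such as Toll-like receptors release NF-kB from its inhibitors, and AP-1, formed by Fos and Jun proteins, often acts with it. Many cytokine mRNAs are short-lived and respond within minutes to handling as well as to infection.

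Promoter sequence was available from RefSeq (build GRCm38.p6) for 6 of the 10 genes: Tnf, Il1a, Il1b, Il6, Ccl3 and Cxcl2. The 250 bases before the annotated start were searched on both strands for the letters of an NF-kB motif (GGG, any 5 bases, CC, or on the other strand GG, any 5 bases, CCC) and of an AP-1 motif (TGANTCA). The NF-kB letters stood in 3 of the 6 windows (Tnf, Il6 and Cxcl2), against 45.8% of all 32851 windows of this length. The AP-1 letters stood in 2 of the 6 (Il6 and Il1a), against 6.75% of all windows. The 3 windows with an NF-kB match are printed because Tnf and Il6 were the genes called in LK cells and Cxcl2 is the neutrophil chemokine. They run 5′ to 3′ on the strand of the gene, and capitals mark the matches. The Tnf window is chr17:35202008-35202257 on the minus strand, the Il6 window chr5:30012864-30013113 and the Cxcl2 window chr5:90903649-90903898, both on the plus strand.
Tnf: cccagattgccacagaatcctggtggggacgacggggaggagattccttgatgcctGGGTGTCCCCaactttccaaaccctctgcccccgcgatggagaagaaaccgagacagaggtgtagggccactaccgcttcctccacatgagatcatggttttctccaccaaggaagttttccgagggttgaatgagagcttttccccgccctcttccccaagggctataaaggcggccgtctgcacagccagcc
Il6: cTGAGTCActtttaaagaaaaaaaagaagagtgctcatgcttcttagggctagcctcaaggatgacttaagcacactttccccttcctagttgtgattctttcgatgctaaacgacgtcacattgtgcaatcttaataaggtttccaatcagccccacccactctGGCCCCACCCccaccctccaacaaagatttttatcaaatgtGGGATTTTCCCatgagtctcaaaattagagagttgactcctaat
Cxcl2: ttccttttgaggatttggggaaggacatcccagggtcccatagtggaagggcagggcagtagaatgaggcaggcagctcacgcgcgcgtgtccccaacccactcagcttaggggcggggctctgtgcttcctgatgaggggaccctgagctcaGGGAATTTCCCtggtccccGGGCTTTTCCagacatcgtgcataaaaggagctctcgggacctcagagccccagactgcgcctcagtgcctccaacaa
The Tnf match began 194 bases before the start. Il6 had 1 match that began 85 bases before the start, an overlapping pair that began 44 and 43 bases before it, and the AP-1 letters 249 bases before it. Cxcl2 had an overlapping pair 97 and 96 bases and a further match 78 bases before its start. A match of letters is not a binding site, and nothing was measured on these windows in this series.

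Ccl3, Ccl4 and Ccl5 lie near each other on chromosome 11 of the same build, at positions 83647844 to 83649355, 83662584 to 83664683 and 83525778 to 83530518. Il1a and Il1b are neighbours on chromosome 2, at 129299610 to 129309972 and 129364570 to 129371139. Nfkbiz lies on chromosome 16 and Osm on chromosome 11. Exon lengths from GENCODE M21 ran from 660 bases (Ccl4) to 5018 bases (Nfkbiz).

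Young libraries held between 26251822 and 38347903 gene counts, old ones between 41909460 and 68260809, and LK libraries between 31853263 and 59882448. Counts of transposable elements came to 11.4% to 16.9% of the gene counts in young and 3.34% to 3.64% in old libraries, so age and the way each set was made cannot be told apart. In the 18-month groups, replicates 2 and 3 were far closer to each other than to replicate 1, with a chi-square per degree of freedom of 2.92 to 6.39 against 13.7 to 44.5. In the young set, Xist was below Ddx3y in 2 libraries, MT replicate 3 and WT replicate 4, and above it in the other 5. Neutrophil markers summed to between 46583.0 and 62939.0 CPM (normalised counts in proportion to library size) in young and to between 149938.8 and 180589.6 in old Cd11b libraries, and to between 582.1 and 3912.2 in LK libraries. Kit, the LK sorting marker, and Itgam, which encodes CD11b, were detected in every library.

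Levels were compared between genes only per kb of exon, as CPM per kb. In young Cd11b WT libraries Il1b had the highest mean, at 130.7 ± 75.4 CPM per kb (SD, n = 4), followed by Osm (107.6 ± 6.48), Ccl3 (85.3 ± 13), Cxcl2 (80.3 ± 27.6) and Nfkbiz (74.1 ± 3.53). The lead of Il1b came from replicate 4 alone, at 243.4 against 116.9 for Osm. In replicates 1, 2 and 3 Il1b (84.7, 95.0 and 99.6) lay below Osm (106.8, 104.6 and 102.0). The ranges of these neighbours in the order overlapped, except between Osm and Ccl3. Tnf (30.9 ± 1.34), Ccl4 (22.3 ± 7.53) and Ccl5 (7.23 ± 1.79) were lower. Il6 (0.747 ± 0.316) and Il1a (0.387 ± 0.118) were lowest, each from at most 77 counts in a library of this group. Old Cd11b WT libraries also had Il1b (184.1 ± 15.8 CPM per kb, SD, n = 3) and Osm (81.5 ± 11.5) at the top, with Cxcl2 (66.0 ± 9.88) and Tnf (57.1 ± 1.29) next. The order in LK WT libraries was another one. There Ccl3 led at 28.4 ± 3.32 CPM per kb, followed by Ccl4 (9.19 ± 0.254), Ccl5 (7.02 ± 3.15) and Osm (6.44 ± 0.23), while Il1b was at 0.386 ± 0.0405.

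**Figure D1:**
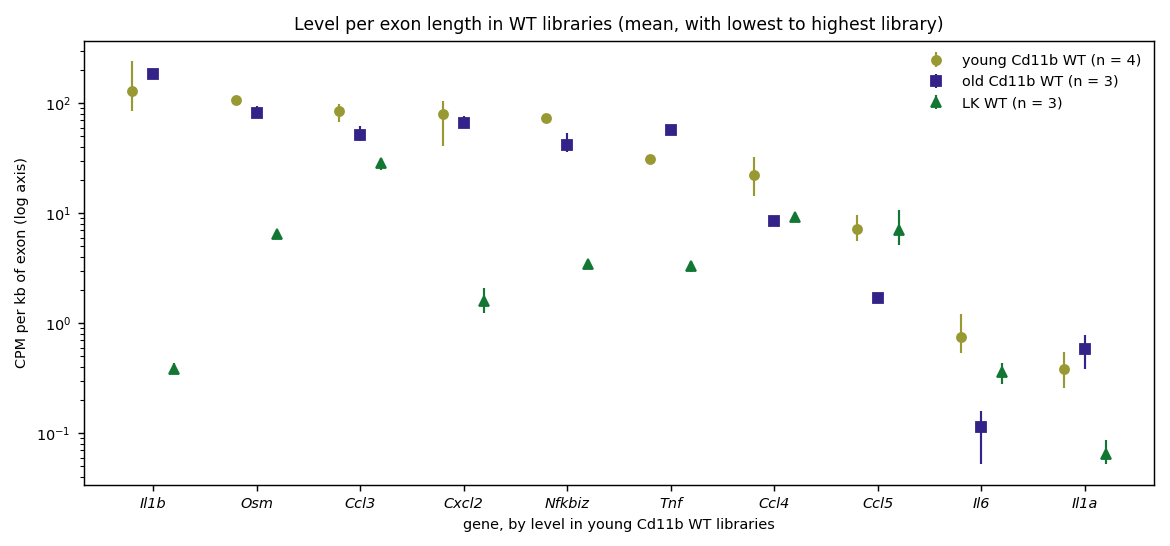
Level of each of the 10 genes in WT libraries, in CPM per kb of exon on a log axis, with points for group means and bars from the lowest to the highest library. Il1b has the highest mean of the 10 in both Cd11b sets, in the young set through replicate 4 alone. It falls to eighth in LK cells, where Ccl3 leads.

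LK cells held less of most of these transcripts than old Cd11b cells, among WT libraries. Of the 10 genes 9 were called, 7 lower and 2 higher, in a comparison that called 86.8% of all 13710 genes tested. Il1b was at 385.5, 328.9 and 339.1 CPM in the 3 old Cd11b WT libraries and at 0.823, 0.676 and 0.707 in the 3 LK WT libraries. This is a log2 fold change of -8.99 ± 0.11 (SE, edgeR with adjusted p 2.92e-10), a level 508-fold lower. Cxcl2 (-5.43), Tnf (-4.19), Osm (-3.76), Nfkbiz (-3.70), Il1a (-3.31) and Ccl3 (-0.96) were lower as well, with edgeR adjusted p of at most 0.000124. The 2 that were higher in LK cells were Ccl5 (1.93 ± 0.29, edgeR adjusted p 0.000252) and Il6 (1.61 ± 0.38, adjusted p 0.0037). Il6 rested on 6 to 17 counts per old WT library and 40 to 59 per LK WT library. Il1a rested on 35 to 85 counts per old WT library and 6 to 7 per LK WT library. Ccl4 did not differ beyond its error (0.01 ± 0.09, adjusted p 0.932). Of the T and NK markers, Nkg7 (a granule protein gene of killer cells) was also higher in LK WT libraries, by 2.16 ± 0.09 with an edgeR adjusted p of 5.21e-08. The 11 markers of this list summed to between 159.2 and 197.1 CPM in LK and 42.3 and 55.7 in old WT libraries. Most of each sum was Nkg7 itself, at 145.1 to 176.5 CPM in LK and 29.4 to 34.8 in old WT libraries. The basophil and mast cell list was split. Mcpt8 (a basophil protease) was higher in LK WT libraries by 2.45 ± 0.18 and Cpa3 (a mast cell protease) by 4.18 ± 0.20, but the 8 markers summed to less, 343.1 to 362.5 CPM against 595.6 to 674.6. The part of such cells in the Ccl5 and Il6 levels was not tested.

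Among WT Cd11b libraries, 7 of the 10 genes differed between the old and the young set, 1 higher and 6 lower, where 73.1% of all 13719 genes tested were called. Tnf was the one that was higher. It was at 53.7, 49.8, 50.7 and 48.5 CPM in the young and at 95.4, 91.2 and 94.0 in the old WT libraries, a log2 fold change of 0.87 ± 0.06 (SE; edgeR adjusted p 3.79e-07). The groups lay apart by far more than their spread. Il6 was at 1.29, 1.51, 1.5 and 2.95 CPM in young and at 0.129, 0.383 and 0.309 in old WT libraries (-2.75 ± 0.42, edgeR adjusted p 0.000156). Ccl5 (-2.09), Ccl4 (-1.40), Nfkbiz (-0.84), Ccl3 (-0.74) and Osm (-0.42) were lower in the old set too, with edgeR adjusted p of at most 0.00183. Il1a (0.60), Il1b (0.48) and Cxcl2 (-0.30) were not called with all libraries. Single libraries decided these 3: Il1b was called without young WT replicate 4 (0.97, edgeR adjusted p 1.75e-06) and Cxcl2 without young WT replicate 1 (-0.52, adjusted p 0.00287). Il1a was called without old WT replicate 1 (0.85, adjusted p 0.0316) and without young WT replicate 4 (0.81, adjusted p 0.0435). Marker lists differed in both directions between the sets. In WT libraries the neutrophil and macrophage lists summed to more in the old set (macrophage 613.3 to 705.7 CPM against 382.3 to 507.8), and monocyte markers overlapped (3663.6 to 4056.1 against 3445.2 to 4411.3). T and NK markers summed to less (42.3 to 55.7 against 77.1 to 114.6). The 8 basophil and mast cell markers overlapped in sum (595.6 to 674.6 against 623.5 to 729.6), although Mcpt8 ran from 71.1 to 119.3 CPM in young and from 3.08 to 12.4 in old libraries of both genotypes, and 4 eosinophil markers summed to between 1117.9 and 1838.4 CPM in young and 74.7 and 177.5 in old. Gzma, a killer cell protease gene, ran from 4.68 to 7.93 and from 0.236 to 0.557 CPM. The part of these cells in the levels of the 10 genes was not tested, and age cannot be told apart from how the sets were made.

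**Figure D2:**
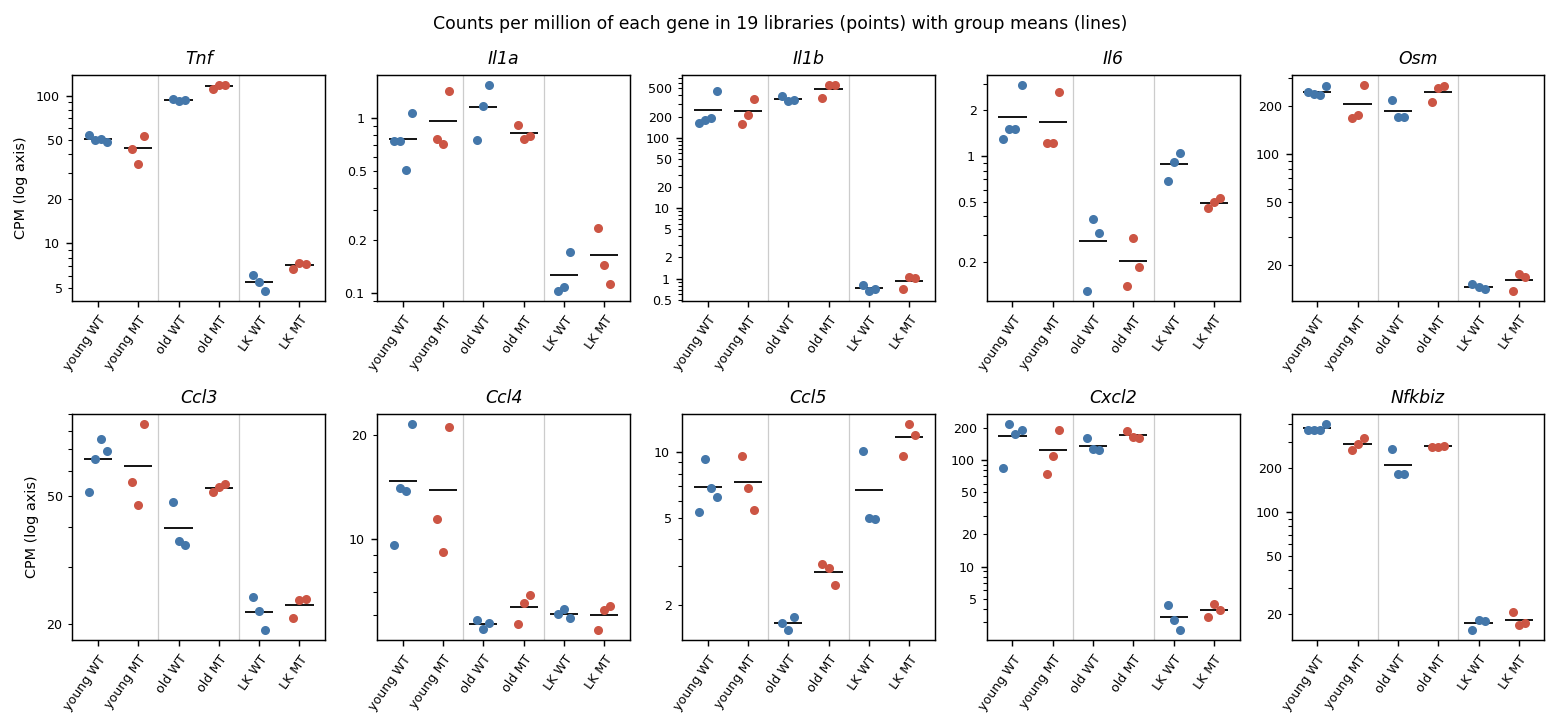
CPM of each gene in every library on a log axis, by set and genotype (blue WT, red MT), with lines for group means. Tnf is the gene with old Cd11b libraries all above young ones (91.2 to 118.2 against 34.6 to 53.7 CPM), and Il1b, Cxcl2, Tnf, Osm, Nfkbiz and Il1a lie far lower in LK than in Cd11b libraries.

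In young Cd11b cells, none of the 10 genes was called for genotype, as was none of all 13755 genes tested (0%; 444 genes had an unadjusted p under 0.05, and DESeq2 called 19). The fold changes leaned downward: 8 of the 10 were lower in MT and 2 higher, with a median log2 fold change of -0.09 against -0.01 over all genes. That median ran from -0.42 to 0.07 as single libraries were left out, the latter without MT replicate 2. Nfkbiz, the NF-kB cofactor, was at 265.1, 292.2 and 322.3 CPM in MT and at 360.1, 364.8, 363.7 and 398.1 in WT libraries. Every MT library lay below every WT library, which held for Nfkbiz alone among the 10 and, in this direction, for 2.15% of all genes. Its log2 fold change was -0.34 ± 0.08 (SE; edgeR p 0.0014, adjusted p 0.837). Osm was at 167.2, 175.6 and 270.0 CPM in MT and 242.8, 237.7, 231.8 and 265.5 in WT (-0.26 ± 0.15, adjusted p 0.999). MT replicate 3 was the highest of the 7 and the other 2 the lowest. Tnf was at 43.6, 34.6 and 53.6 CPM against 53.7, 49.8, 50.7 and 48.5 (-0.21 ± 0.12, adjusted p 0.999), so that the groups overlapped through MT replicate 3.

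In Il1b, Ccl4, Il6, Il1a and Osm the 2 highest young libraries were those set apart by sex-linked genes. The share of all genes with these 2 libraries on top was not counted. Il1b was at 351.4 CPM in MT replicate 3 and 464.2 in WT replicate 4, the 2 libraries with Xist below Ddx3y, and at 158.1 to 211.5 in the other 5. Ccl4 (21.1 and 21.5 against 9.16 to 14.0 CPM) and Il6 (2.63 and 2.95 against 1.21 to 1.51) had the same 2 libraries on top. Il1a, at 1.42 and 1.07 against 0.508 to 0.763 CPM, did so too, as did Osm, at 270.0 and 265.5 against 167.2 to 242.8. Cxcl2 did not, with WT replicate 2 highest at 216.8 CPM and MT replicate 1 lowest at 73.7, nor did Ccl5, with MT replicate 1 (9.65) and WT replicate 2 (9.34) on top. Without these 2 libraries Osm was lower in MT by -0.47 (edgeR adjusted p 0.00626) and Nfkbiz by -0.38 (adjusted p 0.0248), and with a covariate for the split Nfkbiz was lower by -0.36 (adjusted p 0.0425). The fit without the 2 libraries called 0.497% of all genes and the fit with the covariate 0.0509%. The 2 libraries are 1 of each genotype, which allows no test among them. Il1b, Il6, Ccl3 and Ccl4 changed sign when single young libraries were left out, from -0.05 ± 0.45, -0.10 ± 0.37, -0.08 ± 0.20 and -0.09 ± 0.34 (SE) with all 7. Il1a (0.34 ± 0.35) and Ccl5 (0.07 ± 0.23) did so too, while Cxcl2 (-0.42 ± 0.41) stayed negative. None of these was called.

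In old Cd11b cells the fold changes leaned the other way. Of the 10 genes 8 were higher in MT and 2 lower, with a median log2 fold change of 0.36 against 0.00 over all genes, and 51% of all genes were higher. The test called 1 of the 10, Tnf, where 45 of 13398 genes were called (0.336%). Tnf was at 110.1, 118.2 and 117.8 CPM in MT and 95.4, 91.2 and 94.0 in WT libraries, without overlap. Its mean rose from 93.6 ± 2.12 to 115.3 ± 4.55 CPM (SD, n = 3 each), a log2 fold change of 0.30 ± 0.04 (SE; edgeR adjusted p 0.0315). The fold change stayed between 0.28 and 0.35 over 14 alternatives, with adjusted p between 1.87e-05 and 0.691, and it was called in 7. Without MT replicate 2 or 3, or WT replicate 2 or 3, the edgeR adjusted p was 0.254, 0.217, 0.163 and 0.145.

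Chemokines followed the same sign. Ccl5, the T cell and monocyte chemokine, was at 3.06, 2.94 and 2.45 CPM in MT and 1.65, 1.53 and 1.75 in WT, from 52 to 154 counts per library (0.77 ± 0.15, edgeR adjusted p 0.0736). This is the largest fold change of the 10, and the groups did not overlap. Ccl3 was at 51.5, 53.3 and 54.4 CPM in MT and 47.8, 36.1 and 35.2 in WT (0.41 ± 0.11, edgeR adjusted p 0.144). Cxcl2 was at 186.3, 165.9 and 161.7 against 160.0, 126.4 and 123.1 CPM (0.32 ± 0.11, adjusted p 0.209). In both, WT replicate 1 was the WT library nearest to MT, and the groups did not overlap. Ccl4 was at 5.67, 6.53 and 6.86 against 5.80, 5.46 and 5.70 CPM and overlapped (0.16 ± 0.10, adjusted p 0.448).

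Nfkbiz was at 278.0, 277.7 and 284.2 CPM in old MT and 268.0, 181.6 and 180.5 in old WT libraries (0.41 ± 0.15, edgeR adjusted p 0.254). WT replicate 1 lay next to the MT libraries and the other 2 WT libraries far below. Osm was at 210.5, 256.6 and 263.8 against 215.4, 169.5 and 170.7 CPM (0.39 ± 0.11, adjusted p 0.172), and Il1b at 363.1, 561.6 and 563.5 against 385.5, 328.9 and 339.1 (0.49 ± 0.17, adjusted p 0.24). In both, replicates 1 of the 2 genotypes were alike and replicates 2 and 3 differed. The 2 lowest transcripts had the other sign: Il1a at -0.50 ± 0.29 and Il6 at -0.40 ± 0.49, from 30 to 85 and 6 to 17 counts per library, neither called. Together 5 genes (Tnf, Ccl3, Ccl5, Cxcl2 and Nfkbiz) had every old MT above every old WT library, as had 11.2% of all genes in this direction. Of 13 marker lists, 3 summed to less in every old MT than in every old WT library: eosinophil (74.7 to 85.9 against 106.2 to 177.5 CPM), macrophage (507.4 to 600.0 against 613.3 to 705.7) and granulocyte precursor (1313.1 to 1537.2 against 1693.4 to 1833.3). Stem and progenitor markers summed to more (187.0 to 191.1 against 175.3 to 179.1), and the other 9 overlapped. No marker was at 0 in these groups, and the part of these cells in the higher levels was not tested.

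How many of the 10 passed the test in old cells changed when any 1 of the 6 libraries was left out. Without WT replicate 1, 6 were called: Nfkbiz (0.62, edgeR adjusted p 3.8e-05), Ccl3 (0.57, 0.000229), Tnf (0.31, 0.00254), Cxcl2 (0.45, 0.0124), Ccl5 (0.77, 0.0207) and Osm (0.51, 0.0415). That fit called 13.3% of all genes, and the WT libraries it kept are replicates 2 and 3, with a chi-square per degree of freedom of 4.71 between them against 40.0 and 44.5 with replicate 1. Without MT replicate 1, 2 were called, Tnf (0.32, adjusted p 0.0159) and Il1b (0.67, adjusted p 0.0108), where 2.29% of all genes were. Without any 1 of the remaining 4 libraries none was called. The fold changes of the 8 genes that were higher stayed positive in each of these fits.

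**Figure D3:**
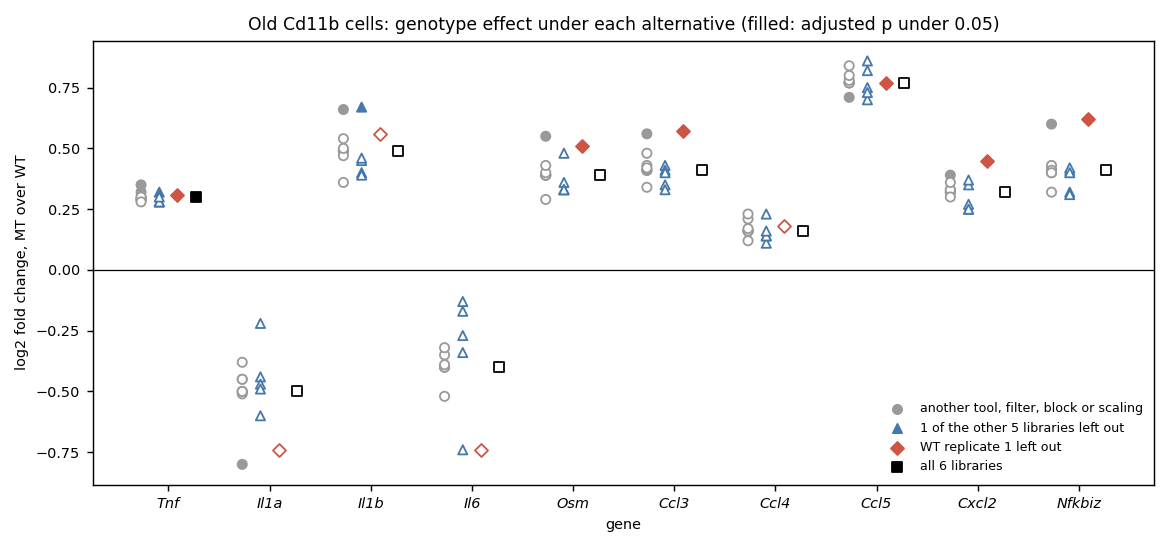
Log2 fold change of MT over WT in old Cd11b cells for each gene under each alternative (grey, other tools and settings; blue, 1 of 5 libraries left out; red, WT replicate 1 left out; black, all 6 libraries), filled where the adjusted p is under 0.05. Tnf stays between 0.28 and 0.35, and Nfkbiz moves from 0.41 to 0.62 without WT replicate 1.

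Immediate early genes are switched on within minutes of a stimulus. In Cd11b cells their fold changes had the sign of the median of the 10 genes at both ages, with none called, and in LK cells they were higher in MT while the 10 genes gave a median of 0.10. The 16 listed genes, with Fos, Jun and Egr1 among them, were all higher in old MT (16 of 16, median log2 fold change 0.31, none called). In young MT 14 of the 16 were lower (median -0.25, none called). In LK MT 15 were higher with 10 called (median 0.39), where 29.8% of all genes were called. Their summed level was 6818.9, 7848.3 and 7960.1 CPM in old MT and 6664.1, 5352.8 and 5219.6 in old WT libraries. WT replicate 1 was again the WT library closest to MT. Among young libraries the sum was 4204.5, 4141.0 and 5415.2 CPM in MT and 6406.2, 6085.8, 6263.3 and 5025.1 in WT. Fosb, an AP-1 subunit gene, had the smallest unadjusted p of the list in old cells, at 91.9, 116.2 and 117.7 CPM in MT and 60.0, 42.8 and 41.9 in WT (1.16 ± 0.16, edgeR adjusted p 0.0527). The part of this response in the cytokine levels was not tested.

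**Figure D4:**
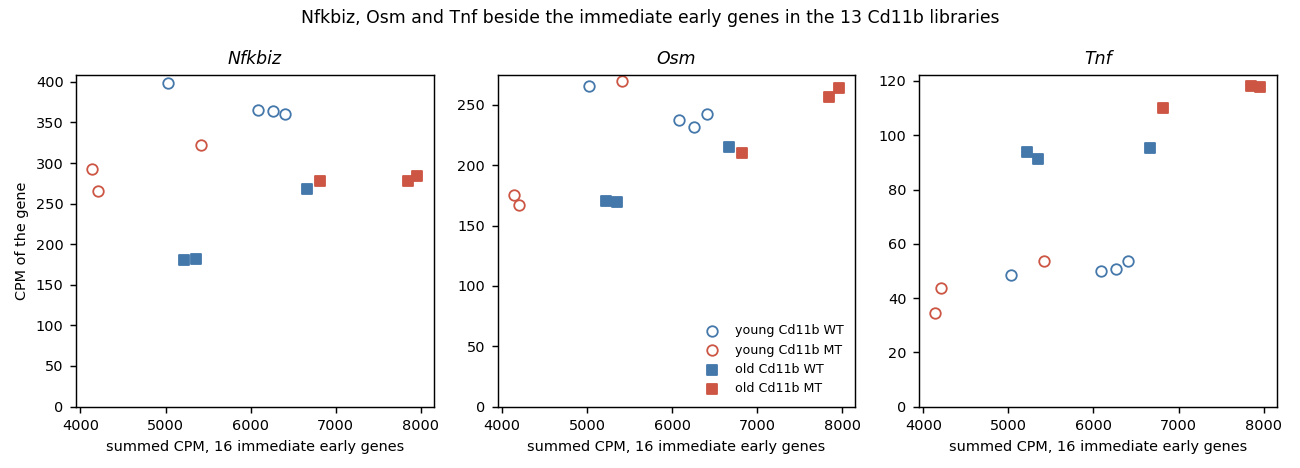
CPM of Nfkbiz, Osm and Tnf in the 13 Cd11b libraries against the summed CPM of 16 immediate early genes in the same library (open, young; filled, old; blue WT, red MT). Old WT replicate 1 (sum 6664.1) lies beside old MT replicate 1 (6818.9) for Nfkbiz and Osm, while its Tnf of 95.4 CPM stays with the WT libraries.

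Whether the genotype effect differed between the ages was tested directly, as an interaction. None of the 10 genes was called, and only 3 of 14024 genes were (0.0214%; 1035 genes had an unadjusted p under 0.05). Of the 10, 8 had a higher fold change in old than in young cells, with a median difference of 0.52 against 0.01 over all genes. Nfkbiz came nearest. It was lower in every young MT library than in any young WT library and higher in every old MT library than in any old WT library. The difference of its fold changes was 0.75 ± 0.17 (SE; edgeR p 0.000565, adjusted p 0.221), called in 3 of 17 alternatives, with adjusted p of 0.0106 by DESeq2, 0.000189 by limma's voom with sample weights and 0.00155 by edgeR without old WT replicate 1. Osm (0.65 ± 0.22), Tnf (0.50 ± 0.15) and Ccl5 (0.70 ± 0.30) had unadjusted p of 0.0128, 0.0044 and 0.0363 and edgeR adjusted p of 0.518, 0.416 and 0.637. Without young MT replicate 3, which lay among or above the WT libraries for Osm and Tnf, both were called (Osm 0.90, edgeR adjusted p 0.0244; Tnf 0.67, 0.0227). That fit called 0.134% of all genes.

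**Figure D5:**
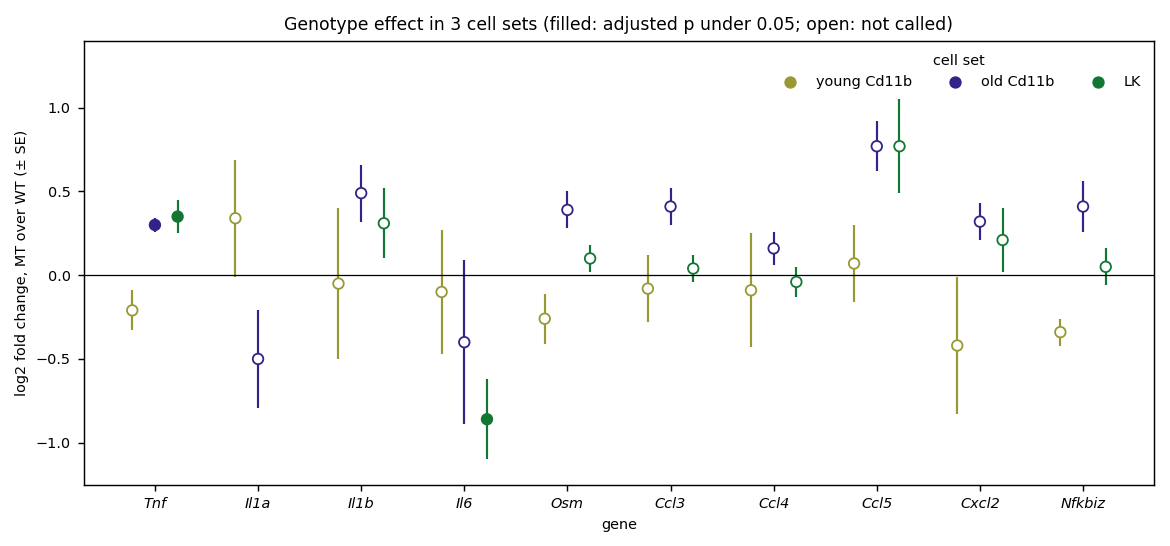
Log2 fold change of MT over WT with its SE for each gene in young Cd11b, old Cd11b and LK cells, filled where the adjusted p is under 0.05. Tnf in old and LK cells and Il6 in LK cells are filled, and for Nfkbiz the young value (-0.34) and the old value (0.41) lie on opposite sides of 0.

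In LK cells 9 of the 10 genes were tested, since Il1a had at most 14 counts in a library and did not pass the filter on low counts. In all 2 genes were called, Tnf higher and Il6 lower, a share of 9 that lies below the 29.8% of all 14113 genes called. Of the 9, 7 were higher, with a median log2 fold change of 0.10 against 0.02 over all genes. Tnf was at 6.68, 7.35 and 7.21 CPM in MT and 6.10, 5.45 and 4.78 in WT libraries (0.35 ± 0.10, edgeR adjusted p 0.0336). It was the only one of the 9 with all MT above all WT libraries, as were 22.8% of all genes. The LK fold changes had a trend with transcript length, and with it removed Tnf changed by 0.17 (adjusted p 0.196). Without MT replicate 2 or 3 its edgeR adjusted p was 0.119 and 0.108, and without WT replicate 2 or 3 it was 0.113 and 0.134.

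Il6 was at 0.452, 0.499 and 0.524 CPM in LK MT and 0.686, 0.906 and 1.05 in LK WT libraries, from 27 to 59 counts each. Every MT library lay below every WT library, as for 21.6% of all genes in this direction, with a change of -0.86 ± 0.24 on the log2 scale (SE; edgeR adjusted p 0.029). With the length trend removed it was -0.97 (adjusted p 0.0262). Without MT replicate 2 or 3 the edgeR adjusted p was 0.0957 and 0.0855, and without WT replicate 2 or 3 it was 0.11 and 0.114. Of 8 basophil and mast cell markers, 4 were called lower in LK MT as well, where 29.8% of all genes were called. Mcpt8 was at 44.4, 49.3 and 47.4 CPM against 52.0, 57.5 and 55.2 (-0.25 ± 0.06, edgeR adjusted p 0.0142), and the 8 summed to between 330.8 and 348.3 CPM in MT and 343.1 and 362.5 in WT. Their part in the Il6 level was not tested.

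Ccl5 was at 9.68, 13.5 and 12 CPM in LK MT and 10.2, 5.01 and 4.97 in LK WT libraries (0.77 ± 0.28, edgeR adjusted p 0.0736). WT replicate 1 lay among the MT libraries, and without it the change was 1.17 (edgeR adjusted p 0.000692). That fit called 38.8% of all genes. It kept WT replicates 2 and 3, with a chi-square per degree of freedom of 2.92 between them against 22.1 and 18.7 with replicate 1. With replicates 2 and 3 summed the change was 0.56 (edgeR adjusted p 0.391). Nkg7, a T and NK marker, was higher beside Ccl5, at 179.7, 231.1 and 231.0 CPM in MT and 176.5, 147.0 and 145.1 in WT (0.42 ± 0.10, adjusted p 0.0193). Of the 11 T and NK markers 4 were called higher and 0 lower, where 29.8% of all genes were called. Ncr1, an NK cell marker, pointed lower and was not called (-0.38 ± 0.2, edgeR adjusted p 0.188). The 11 markers summed to between 196.8 and 256.3 CPM in MT and 159.2 and 197.1 in WT, most of it Nkg7, with none of them at 0. Their part in the Ccl5 level was not tested. Nfkbiz was at 20.6, 16.8 and 17.3 against 15.6, 18.2 and 18.1 CPM (0.05 ± 0.11, edgeR adjusted p 0.755), and Osm, Ccl3 and Ccl4 lay between -0.04 and 0.10, none called. Il1b (0.31 ± 0.21) and Cxcl2 (0.21 ± 0.19) were not called either. With the length trend removed Ccl3 was lower by -0.22 (adjusted p 0.0305).

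The difference between the LK and the old Cd11b genotype effects called 20.7% of all 13996 genes and none of the 10. Tnf had nearly the same fold change in both (difference 0.04 ± 0.09, edgeR adjusted p 0.795), as had Ccl5 (-0.01 ± 0.31, adjusted p 0.991), the latter with a wide error. Ccl3 (-0.38 ± 0.15, adjusted p 0.0936), Nfkbiz (-0.37 ± 0.22, 0.256) and Osm (-0.29 ± 0.16, 0.217) had the smaller value in LK cells. Without old WT replicate 1, 3 of the 10 were called, a share like the 29.6% of all genes called in that fit. The LK and the old Cd11b libraries are from the same age, and each effect has its own WT libraries.

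Other genes of the pathway gave few calls in Cd11b cells and more in LK cells, where 29.8% of all genes were called, against 0.336% in old and none in young cells. Of 16 NF-kB subunits and inhibitors none was called in young or old cells, and in LK cells 4 were lower and none higher: Chuk (-0.29 ± 0.05, edgeR adjusted p 0.00693), a kinase that releases NF-kB, Nfkb1 (-0.16 ± 0.04) and Rel (-0.51 ± 0.14), which are NF-kB subunits, and Tnfaip3 (-0.26 ± 0.08), an inhibitor. Of 24 other NF-kB targets 21 were tested in old cells and 1 was called. This was Ccrl2, a chemokine-like receptor gene, at 22.7, 24.2 and 22.6 CPM in MT and 14.3, 11.6 and 11.7 in WT (0.88 ± 0.09, edgeR adjusted p 0.0159). In LK cells 18 of them were tested, with 3 higher (Gadd45b 0.65, Cxcl10 0.52 and Plaur 0.39) and 1 lower (Tnfaip2 -0.20).

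Of 15 receptors and antagonists 13 were tested in old cells, and 1 was called, the eosinophil chemokine receptor gene Ccr3 (-0.67 ± 0.07, edgeR adjusted p 0.0164). In LK cells 4 of 13 were called, a share near the 29.8% of all genes. Il6ra (-0.34 ± 0.06) and Il6st (-0.52 ± 0.11), the chains of the interleukin 6 receptor, and Il1r1 (-0.60 ± 0.12), the interleukin 1 receptor, were lower, and Tnfrsf1a (0.26 ± 0.06), a TNF receptor, was higher, with edgeR adjusted p of at most 0.0177. Of 18 sensors and transducers 4 were higher and 3 lower in LK MT cells, again beside 29.8% of all genes, and none was called in Cd11b cells. Cd14, a co-receptor for bacterial lipid, was higher (0.87 ± 0.24), and the kinase gene Map3k7 (-0.30 ± 0.05) and the adaptor gene Traf6 (-0.33 ± 0.07) were lower.

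Of 12 regulators of cytokine mRNA, none was called in Cd11b cells. In LK cells 7 were called, 4 higher and 3 lower, beside 29.8% of all genes. Zfp36, which encodes a protein that speeds the decay of cytokine mRNA, was at 264.2, 269.2 and 269.4 CPM in LK MT and 209.9, 193.6 and 194.2 in LK WT libraries (0.40 ± 0.04, edgeR adjusted p 0.00561). Dusp1, a phosphatase that shuts off stress kinases, was higher in LK MT (0.47 ± 0.05, adjusted p 0.00571). Elavl1 was higher there too (0.27 ± 0.04, edgeR adjusted p 0.00757) and Tia1 lower (-0.25 ± 0.05, adjusted p 0.013). In old Cd11b cells Dusp1 was at 556.3, 667.5 and 663.9 CPM in MT and 514.4, 405.0 and 395.5 in WT (0.52 ± 0.11, adjusted p 0.0943). The smallest p of this list in old cells was that of Elavl1 (0.23 ± 0.04, edgeR adjusted p 0.0696). Among 7 genes of secretion and processing, Adam17, the protease that sheds TNF, was lower in LK MT (-0.18 ± 0.04, adjusted p 0.0157) and S100a8, a neutrophil alarmin, higher (1.74 ± 0.45, adjusted p 0.0476). Of 11 neutrophil markers tested 3 were called higher and 0 lower in LK MT (median log2 fold change 1.74), a share near the 29.8% of all genes called. The 12 listed neutrophil markers summed to between 1216.0 and 3912.2 CPM in MT and 582.1 and 1103.2 in WT, with none at 0. All 6 granulocyte precursor markers were called higher in LK MT (median 0.37). They summed to between 13991.9 and 17337.4 CPM in MT and 12212.6 and 13873.2 in WT. Of 8 monocyte markers 2 were called higher and 4 lower. The part of these cells in the LK values was not tested.

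Within groups the 10 genes did not vary as one. Taken around the mean of each group over the 19 libraries, as a description, the log2 levels of Il1b, Il6 and Ccl4 varied together (Pearson r 0.80 to 0.84). Young MT replicate 3 and WT replicate 4 were the highest of their groups in all 3. Tnf varied most with Ccl3 (r 0.69) and Osm (0.66), and hardly with Nfkbiz (-0.01). Ccl5 ran against Nfkbiz (-0.47) and Il6 (-0.40). Among 10877 genes, those most like Tnf were Slco3a1 (r 0.88), Gstm4 and G0s2 (0.82 each). Most like Il1b were Stk17b (0.96), Nfkbid and Rab6a (0.95 each), most like Osm Trib1 (0.96), and most like Nfkbiz Chd6 (0.96). Cxcl2 was most like Fuca2 (0.94), with Ccrl2 at 0.88, and Ccl5 was most like Psmd8 (0.88). Libraries differed in depth within each set, and whether they were prepared together is not given in the sources used here. The part of depth or preparation in these values was not tested.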

How the data were processed

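RNA-seq was made from 19 libraries of mouse bone marrow cells in 3 sets (young Cd11b, old Cd11b and LK). An RNeasy kit was used for extraction and a directional NEBNext Ultra II kit for the libraries, per the labels' protocols. Per the submitters' processing notes, STAR, HTSeq, DESeq2 and mm10 were named, and versions and annotation are not given in the sources used here. The deposited values are raw counts per gene, with 1 table per set and rows that sum to at least 10.

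Counts were tested with edgeR 4.0.16 (R 4.3.3): filterByExpr, TMM factors and robust quasi-likelihood tests, with Benjamini-Hochberg adjustment over all genes and calls at an adjusted p under 0.05. Each genotype comparison used its own set, and the differences between effects and the WT comparisons used both sets in 1 fit. Standard errors are the fold change divided by the root of F. CPM used TMM factors from all 19 libraries over the 14246 genes listed in all 3 sets, so levels across sets rest on that scaling, while fold changes come from each fit. Alternatives were DESeq2 1.42.0, limma 3.58.1 voom with sample weights, RLE factors, no filter on low counts, a replicate block, a fit of all libraries, removal of a length trend, summing replicates 2 and 3, a sex-linked covariate, and leaving out libraries. Exon lengths came from GENCODE M21 and matched 87.4% of listed genes. On simulated counts with a log2 change of 1, the young, old and LK fits recovered 85, 85 and 80% of 100 changed genes. The same fits made 8, 19 and 7 false calls. In the main fits the genotype changes of the genes described here were all smaller than 1 in size. Recovery of such smaller changes was not tested, so these shares do not show how many of them would be missed.

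The 10 genes, the pathway lists and the marker lists were chosen with earlier results of these data known. All 10 are named. From each list, genes were to be named among the 4 called genes with the smallest adjusted p, or where none was called the 2 with the smallest p. Not all genes that this rule picks are named. Genes outside that rule were chosen after their values were seen.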

Additional observations from a re-analysis of the deposited data

Results flagged for a closer look

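Young WT replicate 4 stood apart from the other 3 young WT libraries in 3 of the 10 genes, by a gap test for a single distant value. Its Il1b was 464.2 CPM, its Il6 2.95 CPM and its Nfkbiz 398.1 CPM. Chance alone would mark about 1 in 20 groups, and 10 groups of 4 libraries were tested. These are the 10 genes in the same 4 libraries and are not independent, so the 3 marks cannot be set against that rate. The same library is 1 of the 2 young libraries with Xist below Ddx3y, and the part of that in these levels was not tested.

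The genotype effect on Nfkbiz had opposite signs at the 2 ages, with every young MT library below and every old MT library above the WT libraries of its set. The difference of the log2 fold changes was 0.75, with an edgeR adjusted p of 0.221 that ran from 0.000189 to 0.516 over 17 alternatives.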

How the results depend on the processing

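The number of the 10 genes called for genotype depended on the processing. In young cells it was 0, against 1 with the sex-linked covariate (0.0509% of all genes called). It was 2 without MT replicate 3 and WT replicate 4 together (0.497%). In old cells it was 1, against 5 by DESeq2 (which called 3.93% of all genes), 8 by voom (31.7%), 0 in the fit of all libraries, 0 with replicates 2 and 3 summed, and 0 to 6 leaving out 1 library (6 where 13.3% of all genes were called). In LK cells it was 2, against 6 by voom (58.4% of all genes), 0 with replicates 2 and 3 summed, and 0 to 3 leaving out 1 library. The 3 came in fits that called 35.9% and 38.8% of all genes. For the difference between ages it was 0, against 1 by DESeq2 (0.465% of all genes) and 4 by voom (5.98%). It was 0 to 2 leaving out 1 library, the 2 where 0.134% of all genes were called. For the difference between LK and old cells it was 0, against 3 by voom (50% of all genes). It was 0 to 3 leaving out 1 library, the 3 where 29.6% of all genes were called. The median log2 fold change in old cells was 0.36, against 0.47 by voom and 0.30 to 0.48 leaving out 1 library. The cause of these shifts was not tested.

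Same-numbered MT and WT libraries did not deviate together (r between -0.24 and 0.13), so the numbers were not taken as pairs. A fit with the replicate number as a block called 0 of the 10 in old and 0 in LK cells. With the block, young Il1b was 0.36, Il6 0.18 and Ccl4 0.10, and the Ccl5 difference between LK and old cells 0.05.

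Other changes of sign were of values near 0 in the main fit, and not all stayed near 0 under the alternative. In young cells Il1b was 0.06 by voom and 0.06 without MT replicate 3 and WT replicate 4. In LK cells, with the length trend removed, Osm was -0.02 and Ccl3 -0.22, the latter called (edgeR adjusted p 0.0305). Ccl3 was -0.02 there with replicates 2 and 3 summed, and Nfkbiz -0.10 by voom. For the difference between LK and old cells, Ccl5 was 0.01 with RLE factors, 0.00 by DESeq2 and 0.48 by voom, and Cxcl2 0.01 by voom. For LK against old WT libraries, Ccl4 was -0.07 with RLE factors, -0.05 by DESeq2 and 0.00 with no filter on low counts.

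Leaving out 1 library changed the sign of some values. In young cells the ranges were -0.03 to 0.55 for Il1a, -0.43 to 0.44 for Il1b, -0.57 to 0.22 for Il6, -0.35 to 0.10 for Ccl3, -0.52 to 0.15 for Ccl4 and -0.17 to 0.26 for Ccl5. In LK cells they were -0.04 to 0.09 for Ccl3, -0.08 to 0.01 for Ccl4 and -0.06 to 0.11 for Nfkbiz. The difference between ages ran from -0.64 to 0.18 for Il6. The difference between LK and old cells ran from 0.00 to 0.15 for Tnf, -0.16 to 0.45 for Ccl5 and -0.28 to 0.12 for Cxcl2. Ccl4 in LK against old WT libraries ran from -0.04 to 0.03. Of 139 values of single genes under alternatives in old cells none changed sign. Il6 in old cells and Il1a in LK cells rest on at most 17 and 14 counts a library, which limits the precision of their genotype values.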
